A study of Mus musculus with 2 samples.

Results

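Alpha and delta cells make up part of the pancreatic islets, small clusters of hormone cells within the enzyme-secreting tissue of the pancreas, and 8 genes tied to their identity were followed in pancreatic RNA of mice whose mothers had eaten a control or a methionine-deficient diet. The genes were Irx1, Irx2, Hhex, Pou3f4, Ttr, Gc, Fap and Ghsr, and every probe set whose platform gene symbol was one of these names was taken. This gave 11 probe sets for 7 of the 8 genes, out of 45037 probe sets that are not array controls. Gc, the gene of the vitamin D-binding protein, was not analysed here. Each of the 11 probe sets carried a single gene symbol.

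Both groups were male offspring of C57BL/6J mothers, an inbred strain, and both ate control diet from weaning at 3 weeks until their pancreas was taken at 10 weeks. The control group differed from the methionine-deficient group only in what the mother ate in pregnancy, as far as the labels say. Methionine, which mice must take up with food, supplies the methyl groups that cells place on DNA and other molecules, and the comparison asks what such a diet of the mother leaves in the adult pancreas. Each group's RNA was pooled and read on 1 array, so n = 1 per group, no test is possible, and the spread of mice or of arrays is not known. How many mice entered a pool is not given in the sources used here.

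Alpha cells secrete glucagon, delta cells somatostatin and PP cells pancreatic polypeptide. Irx1 and Irx2 encode Iroquois homeodomain transcription factors found in alpha cells, and Pou3f4, also called Brn4, encodes a POU homeodomain factor of alpha cells that can bind the glucagon promoter. Hhex encodes a homeodomain repressor that delta cells need, and it also acts in early pancreas, liver and bile duct development. Ttr encodes transthyretin, which carries thyroxine and retinol-binding protein in blood, Fap encodes a surface protease of the dipeptidyl peptidase family, and Ghsr encodes the receptor for ghrelin, in the islet mainly a delta cell protein. None of these genes is known chiefly from PP cells, so for that cell type the hormone gene Ppy and the related peptide gene Pyy were read beside them.

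The largest differences were those of 2 transcription factor genes, both at dim levels. In the methionine-deficient pool Irx2 was higher and Pou3f4 lower, the latter by a large amount in only 1 of its 2 probe sets. Ttr, with the brightest readings, was slightly lower in all 4 of its probe sets. Of the 11 probe sets, 4 were higher and 7 lower, with 1 past 2-fold in each direction. Over all 45037 probe sets, 32.1% were at least 2-fold different, 16.9% higher and 15.1% lower, so 2 of 11 is no larger a share than the arrays as a whole gave. The median log2 difference was -0.14 over the 11 probe sets and 0.02 over all probe sets, of which 23065 were higher and 21972 lower. Ttr and Pou3f4 gave 4 and 2 of the 7 lower probe sets, so these counts and the median do not weigh genes equally. Read by the brightest probe set of each gene, Irx1, Irx2, Fap and Ghsr were higher and Hhex, Pou3f4 and Ttr lower. Differences are methionine-deficient minus control on the scale of log2(intensity + 1), which understates the fold of dim probe sets.

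As the only error that these arrays offer, a probe-set spread is given with each difference. It is a robust SD of the log2 difference between probe sets of the same gene, taken in 5 level bins of equal size. It covers noise of probes within these 2 arrays and says nothing of mice. It was 1.86 in the dimmest bin, 2.03 in the second, 0.97 in the third, 0.54 in the fourth and 0.23 in the brightest.

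**Figure D1:**
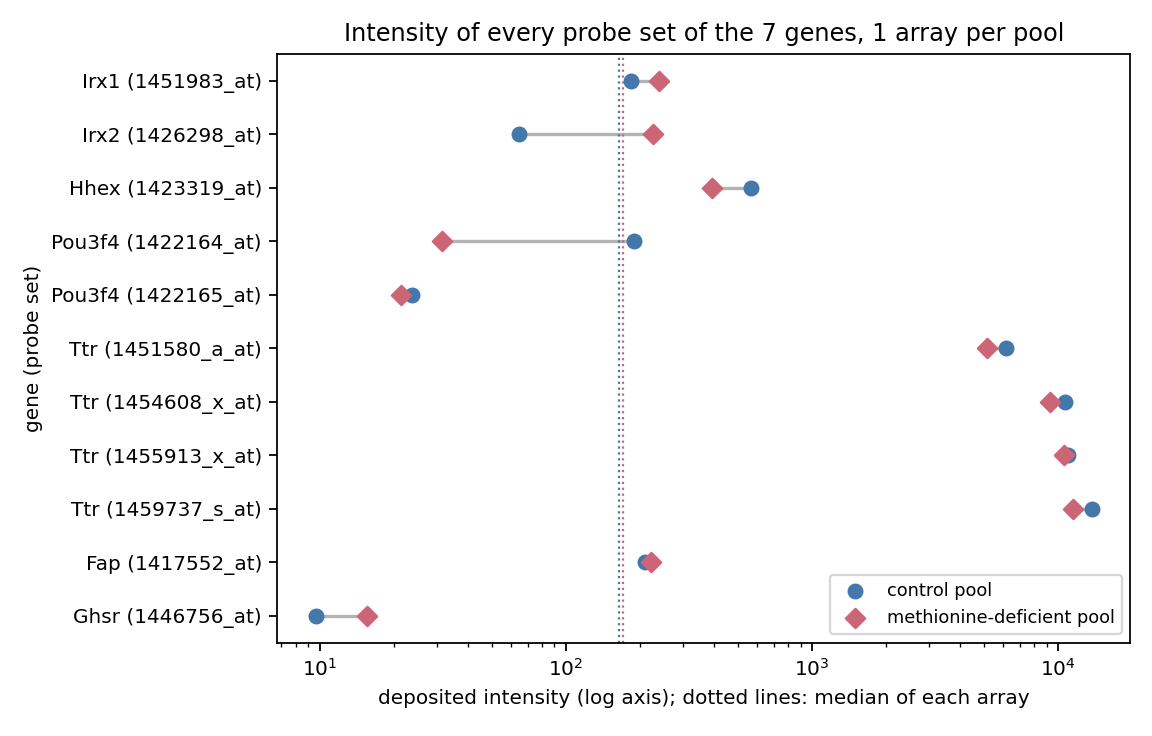
Deposited intensity on a log axis of each of the 11 probe sets in the control pool (circles) and the methionine-deficient pool (diamonds), with 1 array per pool and no error bars. Irx2 and the brighter Pou3f4 probe set cross the dotted array medians of 165 and 171, while the 4 Ttr probe sets lie between 5145 and 13714 in both pools.

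Irx2 was read by probe set 1426298_at, which read 64.8 in the control pool against 227 in the methionine-deficient pool. The control value lay below the median of its array, which was 165, and the methionine-deficient value above its own, which was 171. Ranks give the place of a reading among all probe sets of its array from the brightest down, and since probe sets bind with unequal strength they do not order transcripts by abundance. Irx2 stood at 31680 of 45037 in the control pool and at 19046 in the methionine-deficient pool. Its log2 difference was 1.79 (3.47-fold higher), beside a probe-set spread of 0.97. It ranked 4179 among all differences sorted from the most positive. In the third level bin, which holds Irx2, 16.4% of probe sets were at least 2-fold higher, and 499 of 9008, or 5.54%, were higher by as much as Irx2 or more. Irx2 was read by this probe set alone.

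Irx1, the Iroquois gene next to Irx2 in the order of protein-coding genes, was read by 1451983_at. Its intensity was 184 in the control pool against 240 in the methionine-deficient pool, and its rank moved from 21164 to 18441. The log2 difference of 0.38 (1.30-fold higher) was smaller than the probe-set spread of 0.97. Irx1 and Irx2 thus differed in the same direction, but the values lay 1.42 apart on the log2 scale, and with single arrays that gap has no test. Irx4, the third gene of this cluster, had 22.8 in the control pool against 19.2 in the methionine-deficient pool (log2 difference -0.24, probe-set spread 1.86).

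Pou3f4 had 2 probe sets that disagreed in size. The first, 1422164_at, had 190 in the control pool against 31.6 in the methionine-deficient pool, at ranks 20795 and 36355. Its log2 difference was -2.55 (5.87-fold lower), with a probe-set spread of 2.03, and it ranked 2013 among all differences sorted from the most negative. The second, 1422165_at, had 23.8 in the control pool against 21.4 in the methionine-deficient pool (log2 difference -0.14, probe-set spread 1.86). Both probe sets read lower in the methionine-deficient pool, but the second by far less than its probe-set spread. In its level bin, the dimmest, 43.0% of probe sets were lower by as much or more. The large difference thus rests on 1 probe set, and the SD between the 2 log2 differences was 1.70. No detection calls were used here, so whether the dim Pou3f4 readings, 31.6 included, lie above background is not known. In the second level bin, which holds the first probe set, 32.1% of probe sets were at least 2-fold lower, and 949 of 9007, or 10.5%, were lower by as much or more.

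Hhex, the delta cell regulator, was lower in the methionine-deficient pool by a smaller amount. Its probe set 1423319_at had 568 in the control pool against 394 in the methionine-deficient pool, both above the array medians, at ranks 10163 and 13332. The log2 difference was -0.53 (1.44-fold lower), about the size of the probe-set spread of 0.54. In its level bin, the fourth, 1349 of 9007 probe sets, or 15.0%, were lower by as much or more. In bulk tissue, a different number of cells of a type and a different RNA level per cell cannot be told apart. This holds for every gene above and below.

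The stretches upstream of the start of Irx2, Pou3f4 and Hhex are shown because these are the transcription factor genes with the largest differences and because the diet concerns methyl groups, which DNA carries at CG. They are 250 bases each, read 5′ to 3′ on the strand of the gene from RefSeq (GRCm38.p6), with each CG in capitals. Methylation itself was not measured in these data.

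Irx2, chr13:72628570-72628819, plus strand: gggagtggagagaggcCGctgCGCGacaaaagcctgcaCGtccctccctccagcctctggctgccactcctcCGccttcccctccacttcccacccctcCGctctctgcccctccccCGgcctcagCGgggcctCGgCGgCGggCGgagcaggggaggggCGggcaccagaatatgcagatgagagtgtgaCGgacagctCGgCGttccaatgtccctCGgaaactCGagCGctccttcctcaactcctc
Pou3f4, chrX:110814129-110814378, plus strand: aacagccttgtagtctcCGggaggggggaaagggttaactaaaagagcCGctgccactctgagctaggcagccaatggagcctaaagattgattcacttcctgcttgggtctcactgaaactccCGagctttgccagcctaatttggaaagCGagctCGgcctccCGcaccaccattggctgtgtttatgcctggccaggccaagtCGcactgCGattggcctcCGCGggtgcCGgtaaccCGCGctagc
Hhex, chr19:37434591-37434840, plus strand: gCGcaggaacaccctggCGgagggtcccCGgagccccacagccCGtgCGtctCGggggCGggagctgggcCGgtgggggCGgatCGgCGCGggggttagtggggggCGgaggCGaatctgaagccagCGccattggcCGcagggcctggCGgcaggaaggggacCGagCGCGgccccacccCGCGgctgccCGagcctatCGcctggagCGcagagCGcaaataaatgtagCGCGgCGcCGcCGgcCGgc

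Hhex held 32 CG in its window, Irx2 held 19 and Pou3f4 held 13, against a median of 6 over 32817 RefSeq windows of the same length. Hhex had more CG than 95.4% of these windows, Irx2 more than 80.3% and Pou3f4 more than 68.5%. The window of Ghsr held 11, and that of Gc held 0. Irx2, which was higher, and Pou3f4 and Hhex, which were lower, all had CG counts above the median. The motif CCAAT, searched on both strands, occurred 3 times in the window of Pou3f4 and 1 time each in those of Irx2 and Hhex, and 33.8% of all windows held it. TATAAA, also searched on both strands, was in none of these 3 windows and in 12.4% of all windows.

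Ttr was the only one of the 7 genes near the top of the arrays. Probe set 1459737_s_at had 13714 in the control pool against 11572 in the methionine-deficient pool (log2 difference -0.25), at ranks 490 and 545. Probe set 1451580_a_at had 6163 and 5145 (log2 difference -0.26). The other two were 1454608_x_at, with 10715 and 9272 (log2 difference -0.21), and 1455913_x_at, with 10946 and 10608 (log2 difference -0.05). All 4 were lower in the methionine-deficient pool, with a mean log2 difference of -0.19 and an SD of 0.10 between probe sets. These are readings of the same 2 RNA pools and are not replicates.

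The Ttr differences were close to or below the probe-set spread of 0.23 at this level, and none approached 2-fold, which 0.833% of probe sets in the brightest bin reached. Between 16.1% and 43.8% of the probe sets in that bin were lower by as much as a given Ttr probe set or more. The IDs of all 4 end in _a_at, _s_at or _x_at, which marks probe sets that can bind several transcripts, so they are not independent views of 1 transcript. The liver also makes Ttr. Of 10 liver markers 9 had a probe set and 2 reached the median level of all probe sets, a mean intensity of 150. These were Alb (albumin) at 279 and 193 and Apoa2 (an apolipoprotein) at 344 and 245, both lower in the methionine-deficient pool. The other liver markers with a probe set lay below that level, and all but Ahsg were higher in the methionine-deficient pool. The summed intensity of the 9 was 945 in the control pool against 1104 in the methionine-deficient pool, and none was at 0. Their part in the Ttr values was not tested.

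Rbp4, the retinol-binding protein that travels with transthyretin and is itself strongly expressed in delta cells, had 948 in the control pool against 865 in the methionine-deficient pool. Its log2 difference of -0.13 had the same direction as Ttr and was also smaller than the probe-set spread of 0.23. Stra6, the receptor that takes up retinol from this carrier, was dim in both pools, at 26.6 and 28.5.

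Fap, which alpha cells share with activated fibroblasts, had nearly the same level in both pools. Its probe set 1417552_at had 210 in the control pool against 223 in the methionine-deficient pool, at ranks 19675 and 19283. The log2 difference was 0.08, beside a probe-set spread of 0.97, so a difference smaller than that could not be seen. Fap lies next to Gcg, the glucagon gene, in the order of protein-coding genes, with Dpp4, a related peptidase gene, on the far side of Gcg. Gcg was 1.31-fold higher (21772 and 28591) and Dpp4 1.55-fold higher (266 and 413), while Ifih1, an RNA sensor gene on the other side of Fap, was 1.81-fold lower (505 and 279). The neighbours of Fap thus went both ways. All 10 fibroblast and stellate cell markers reached the median level, 6 higher and 4 lower, with a summed intensity of 25004 in the control pool against 24803 in the methionine-deficient pool and none at 0. Pdgfra, a receptor of fibroblasts, was the one past 2-fold, at 859 and 405. Their part in the Fap value was not tested.

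Ghsr, the ghrelin receptor gene, was the dimmest of the 7. Probe set 1446756_at had 9.69 in the control pool against 15.6 in the methionine-deficient pool, at ranks 42172 and 40489 of 45037. The log2 difference of 0.63 lay well inside the probe-set spread of 1.86. Whether either value lies above background is not known, since no detection calls were used here. Its ligand gene Ghrl, made by epsilon cells of the islet, had 147 and 182 (log2 difference 0.30, probe-set spread 0.97). Mrap2, an accessory protein of this receptor, had 184 and 180.

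**Figure D2:**
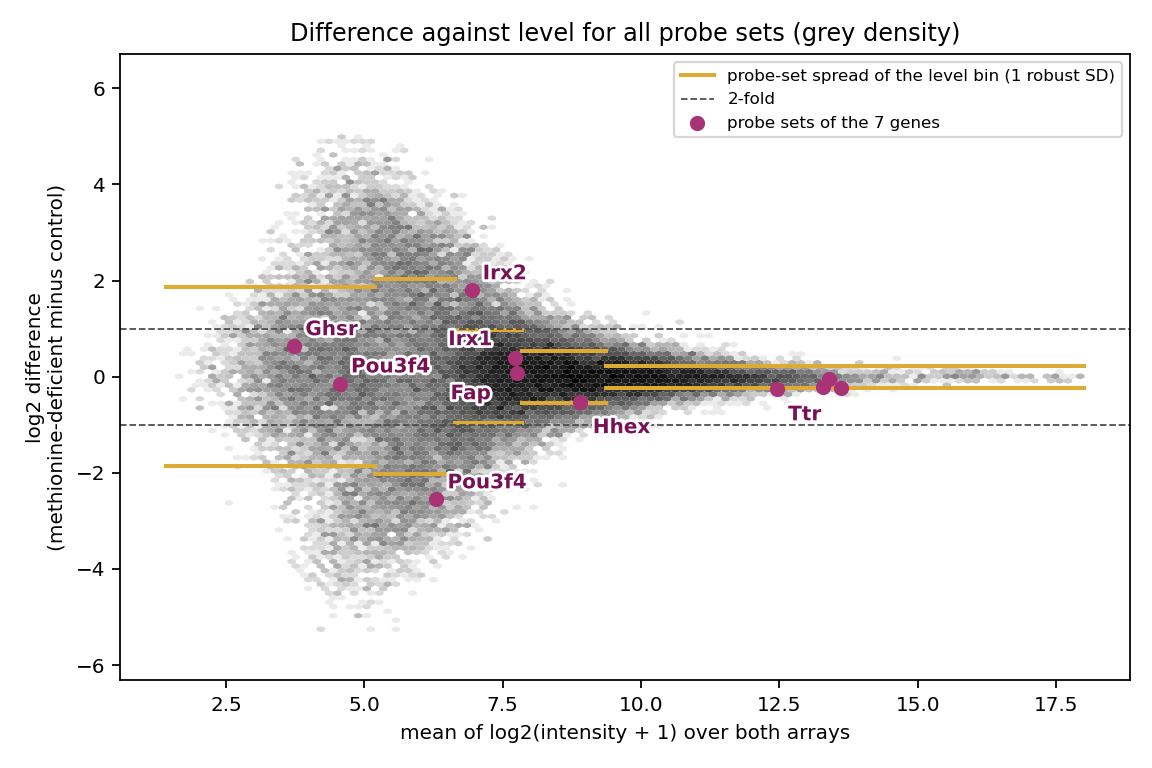
Log2 difference (methionine-deficient minus control) against the mean log2 level of both arrays, for all probe sets as grey density and for the 11 probe sets of the 7 genes as points. Yellow lines are 1 robust SD between probe sets of a gene in each of 5 level bins and dashed lines 2-fold; Irx2 at 1.79 and the brighter Pou3f4 probe set at -2.55 lie in the dim, wide part of the cloud, and the 4 Ttr probe sets lie just below 0 in its narrow part.

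Of the 7 genes 4 reached the median level of 150, and these were Ttr, Hhex, Fap and Irx1. Their differences lay between -0.53 and 0.38, none past 2-fold. The 3 below it, Irx2, Pou3f4 and Ghsr, held the largest differences in both directions. Across the 7 genes the rank of Ttr moved by the fewest places between the pools and that of Pou3f4 by the most.

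The other Iroquois and POU class III genes show how values at this level behaved, and all are given, outside the rule for named genes. None reached the median level. Irx3 had 291 in the control pool against 19.5 in the methionine-deficient pool, Irx5 had 136 and 131, and Irx6 had 80.0 and 41.0. Among the POU genes, Pou3f1 had 41.2 and 216, Pou3f2 had 23.7 and 123, and Pou3f3 had 97.2 and 36.6. Large differences in both directions thus occurred among relatives of Irx2 and Pou3f4 that were as dim.

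Islet hormone genes, read for comparison, differed by less than 1.5-fold. The log2 difference of Gcg was 0.39, beside a spread of 0.23, and the delta cell hormone gene Sst had 2373 and 2262 (log2 difference -0.07). Ppy had 818 and 788 (log2 difference -0.05), and Pyy had 1858 and 1667 (log2 difference -0.16). Ins2, the insulin gene of beta cells, had 93733 and 93461. Both pools thus held hormone transcripts of alpha, beta, delta and PP cells, and of the acinar markers of the labelled tissue 7 of 7 with a probe set reached the median level, with a median log2 difference of -0.06. Among the alpha cell genes, Irx1, Irx2 and Gcg were higher, Pou3f4 lower and Fap close to 0. Ttr was lower, and these bulk pools do not show which cells its RNA came from. Irx1 and Fap lay inside their probe-set spread. So did the dimmer Pou3f4 probe set and, for Ttr, 1454608_x_at and 1455913_x_at. Among the delta cell genes, Hhex had -0.53, Sst -0.07, Rbp4 -0.13 and Ghsr 0.63, each smaller in size than its probe-set spread.

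The other genes of these cell types were counted by their brightest probe set where it reached the median level. A gene near that level could reach it through its higher pool alone, which limits all such counts here. Over all 11848 such genes, 6.68% were at least 2-fold different, 3.87% higher and 2.8% lower, and the median log2 difference was 0.00. Of the other alpha cell genes 2 of 8 could be counted, Gcg and Slc7a2, an arginine transporter at 1385 and 2031 (log2 difference 0.55), and both were higher. Of 6 other delta cell genes 3 were counted, 1 higher and 2 lower with a median of -0.07, and of 5 other PP and epsilon cell genes 4 were counted, 2 higher and 2 lower with a median of 0.12. None of these was past 2-fold.

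A list of 15 islet regulators held some shared by the islet cell types and some used by a few of them. Of these, 13 had a probe set and 6 reached the median level. Among the 6 counted, 5 were higher and 1 lower, with a median log2 difference of 0.14 and none past 2-fold. Those below the median level held differences past 2-fold in both directions, among them Isl1 at 47.8 and 301 and Foxa1 at 144 and 23.7. Pdx1, which beta and delta cells use, had 331 and 500 (log2 difference 0.60, probe-set spread 0.54), and Neurod1 had 280 and 334 (log2 difference 0.25). Pax6, which is needed for glucagon cells, had 161 and 156. Beta cell markers were split 3 to 3, and their median was 0.02. The glucose transporter gene Slc2a2 of that list was also the gene whose pair of levels lay nearest to that of Hhex, at 563 and 392, a distance of 0.01 on the log2 scale over 2 arrays.

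Known partners of the 8 genes, vitamin D genes that go with Gc included, were higher in 5 and lower in 6 of 11 counted cases, and their median was -0.03. Cyp24a1, which breaks down vitamin D, was the one past 2-fold, at 87.8 and 275 (log2 difference 1.63, probe-set spread 0.97), and it reached the median level only through the pool where it was high. Fgf21, a hormone that the protease FAP cleaves and that acinar cells make, had 1686 and 1137 (log2 difference -0.57, probe-set spread 0.23). Tle1 and Tle3, corepressors of the kind that HHEX recruits, had log2 differences of -0.12 and -0.09.

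Duct cells, endothelial cells and B cells can also express Hhex, and their markers were read for that reason. Of 5 duct markers counted 4 were higher, the median log2 difference being 0.62, led by Onecut1 at 217 and 590. The summed intensity of all 6 duct markers with a probe set, Cftr below the median level at 129 and 46.2 included, was 10488 and 10864. Most of that sum came from Muc1, the 1 counted duct marker that was lower, at 8791 and 8461, so the sum says little of the others. Of 6 endothelial markers 5 were higher, their median being 0.31, and all 8 with a probe set summed to 2815 and 3574. The lower one, Tie1 at 198 and 135, reached the median level only through the control pool. The 4 B cell markers counted were split 2 to 2 with a median of -0.06, among them Ms4a1, a B cell surface protein gene, at 619 and 397. Blnk, counted as higher at 112 and 217, reached the median level only through the methionine-deficient pool. All 5 B cell markers with a probe set summed to 1252 and 1195. No marker of these lists was at 0. Hhex was lower while the duct and endothelial medians were above 0, and their part in the Hhex value was not tested. Of 7 macrophage markers counted 4 were higher and 3 lower, the median being 0.03, with the complement genes C1qa at 1181 and 2381, past 2-fold, and C1qb at 1370 and 1889.

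**Figure D3:**
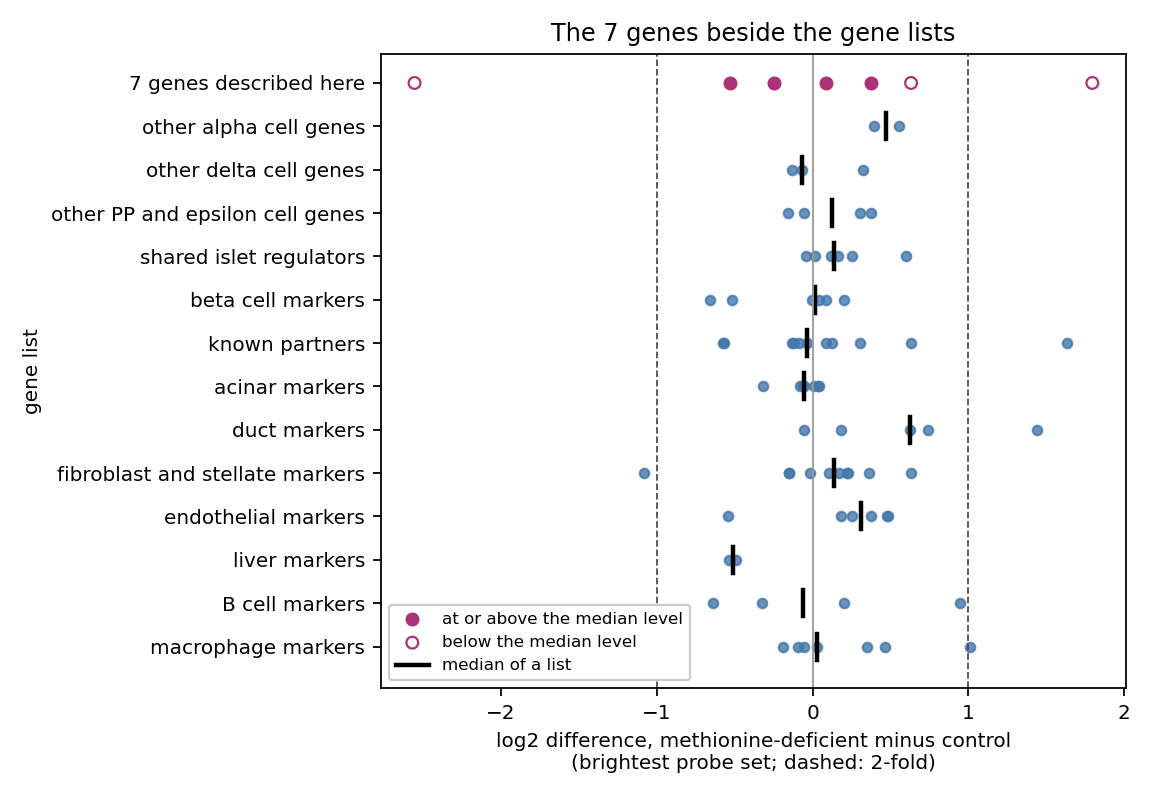
Log2 difference (methionine-deficient minus control) of the brightest probe set of each gene, for the 7 genes (top row) and for genes of each list that reached the median level (1 point per gene, black bar the median of the list); dashed lines are 2-fold. Open circles in the top row are Irx2, Pou3f4 and Ghsr, which lay below the median level, and the 4 filled points lie between -0.53 and 0.38.

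For each of the 7 genes, the gene with the nearest pair of levels was taken over the 2 arrays. These were 4930563E18Rik for Irx1, 6330509M05Rik for Irx2, Gm16793 for Pou3f4, Aldh7a1 for Ttr, Pgap1 for Fap and Ampd1 for Ghsr, beside Slc2a2 for Hhex. Their distances were between 0.01 and 0.08 on the log2 scale, and with 2 arrays such nearness describes a pair of values and no shared pattern. RNA quality was read from control probe sets at both ends of a transcript, and the 3′ over 5′ ratio of Actb was 1.46 in the control pool against 1.76 in the other, while that of Gapdh was 0.973 against 1.11. Its part in the values above was not tested.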

How the data were processed

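The deposited values are linear intensities per probe set of 2 Affymetrix 3′ arrays, 1 per pool of RNA. Per the labels, RNA was extracted with Trizol and labelled with a 3′ IVT kit. The sources used here do not name the authors' program, background correction or scaling. Both arrays had a mean of 500.003 once 2% of probe sets at each end were trimmed, so a common scaling is likely and a change in total RNA would not be seen. The platform annotation (2016) gave gene symbols, which were brought up to date by gene identifier; 34945 of 45037 probe sets that are not array controls had 1 symbol. No scaling was added, and differences are of log2(intensity + 1).

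The level of a probe set was its mean over both arrays on the log2 scale, and a gene was read by its brightest probe set. A difference was counted at 2-fold, with no test. The probe-set spread came from pairs of probe sets of 1 gene next to each other in level and in the same bin, divided by the square root of 2. The counting and the spread were tested on simulated data with less noise in every level bin than these arrays showed, which checks the computation alone. The 7 genes and the lists were chosen with earlier results of these data known. Named were all probe sets of the 7 genes, the hormones, Rbp4, list genes among the up to 4 with the largest difference at or above the median level, and the nearer of the 2 genes closest in level. Genes named outside this rule (Stra6, Mrap2, Pax6, Isl1, Foxa1, Ahsg, Cftr, Muc1, Tle1, Tle3, Ifih1, Irx3 to Irx6 and Pou3f1 to Pou3f3) were chosen after values were seen. Alternatives were median, quantile and loess scaling, a pseudocount of 16, level filters, sizes of 1.5-fold and 3-fold, omitting probe sets whose IDs mark several possible transcripts, and the mean over probe sets. Promoter windows came from RefSeq (GRCm38.p6). Computations used Python 3.11.15, numpy 2.4.6, pandas 2.3.3 and statsmodels 0.14.6.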

Additional observations from a re-analysis of the deposited data

How the results depend on the processing

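No log2 difference of the 11 probe sets changed sign under the 3 scalings or the pseudocount of 16, and none of these 44 values moved by more than the probe-set spread. Irx2 ranged from 1.59 to 1.76 and the brighter Pou3f4 probe set from -2.62 to -2.12. As the mean over its probe sets Pou3f4 had -1.35 and Ttr -0.19. With a level filter at the median, at the 75th percentile, or at the median of the arithmetic mean, the last chosen after seeing the data, 0 of the remaining 7, 4 and 7 probe sets were 2-fold higher and 0 were 2-fold lower, since Irx2 and Pou3f4 lie below these levels. At 1.5-fold, 2 of 11 were higher, Irx2 and Ghsr, as were 24.9% of all probe sets, with 22.4% lower. Ghsr lay between 0.30 and 0.58 under the scalings and the pseudocount of 16, below 1.5-fold in each. Of all probe sets, 4.5% were 2-fold higher and 3.41% lower with the median filter, 0.808% and 0.577% with the 75th percentile filter, 5.59% and 4.45% with the arithmetic mean, and 10.8% and 9.6% passed 3-fold. Omitting probe sets whose IDs mark several possible transcripts removed all 4 of Ttr. No paired analysis was possible because each group has 1 array and the labels carry no replicate numbers. With 1 array per group no array could be left out, and the number of arrays limits the precision.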
